A study of Mus musculus with 18 samples.

Results

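The genes described here are the 5 isocitrate dehydrogenase genes Idh1, Idh2, Idh3a, Idh3b and Idh3g, together with Cs, Ogdh, Fh1 and Mdh2 of the citric acid cycle, 9 of the 19505 genes measured. They were chosen by name. The choice between probe sets, by the highest mean signal over all 18 arrays, had nothing to decide, since each of the 9 genes has 1 probe set. NeuT is a mouse line that carries an activated rat Erbb2 (HER2/neu) oncogene and develops mammary tumours. RNA was measured on 1 array per mouse from 5 NeuT mice of 12 weeks (labelled as an early stage of tumour development), 5 BALB/c controls of 12 weeks, 4 NeuT mice of 24 weeks (labelled as a late stage) and 4 BALB/c controls of 24 weeks. Both NeuT groups are called tumour-bearing, and a tumour effect cannot be told apart from an effect of the oncogene elsewhere. The cells, labelled as bone marrow mesenchymal stromal cells, came from femurs and tibias by depletion of blood cells with antibody-coated beads, against B220 and CD3 of lymphocytes, Gr1, CD11b and CD11c of myeloid cells, Ter119 of erythroid cells, and CD45. The design asks how the cells of tumour-bearing mice differ from those of controls, and whether an early stage differs from a late one.

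The citric acid cycle of the mitochondrial matrix oxidises acetyl groups and passes the electrons to NADH and to the respiratory chain. Its isocitrate step is catalysed by the NAD-dependent isocitrate dehydrogenase, an assembly of the catalytic subunit encoded by Idh3a and the regulatory subunits encoded by Idh3b and Idh3g. Idh1 and Idh2 encode separate enzymes that use NADP, Idh1 in the cytosol and in peroxisomes and Idh2 in mitochondria, so the same conversion of isocitrate to 2-oxoglutarate supplies NADPH for lipid synthesis and for defence against oxidants. In marrow, NADPH also feeds the oxidative burst of neutrophils.

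The promoters of Idh1 and Idh2, 2 of the 3 members called higher in NeuT mice below, are shown as the 250 bases before the transcript start, in the direction of the gene, from RefSeq (GRCm38.p6). The third called member is Idh3a, whose window was not analysed here. Windows of the other 8 genes, 14 in all, were searched. Capitals mark matches to the GC box GGGCGG and the CCAAT box CCAAT on either strand, read as CCGCCC and ATTGG on the reverse strand.

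Idh1, upstream start, chr1:65186480-65186729, minus strand: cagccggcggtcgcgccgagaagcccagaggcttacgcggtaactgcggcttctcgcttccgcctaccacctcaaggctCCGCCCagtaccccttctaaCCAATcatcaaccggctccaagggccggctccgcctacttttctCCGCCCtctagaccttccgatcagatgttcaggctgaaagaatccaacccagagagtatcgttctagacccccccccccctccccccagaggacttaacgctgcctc

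Idh1, downstream start, chr1:65179143-65179392, minus strand: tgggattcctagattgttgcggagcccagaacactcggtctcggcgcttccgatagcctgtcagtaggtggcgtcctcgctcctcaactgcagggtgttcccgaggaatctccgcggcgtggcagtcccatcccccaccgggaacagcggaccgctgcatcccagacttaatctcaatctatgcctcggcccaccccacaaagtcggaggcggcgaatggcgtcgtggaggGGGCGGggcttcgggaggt

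Idh2, chr7:80115351-80115600, minus strand: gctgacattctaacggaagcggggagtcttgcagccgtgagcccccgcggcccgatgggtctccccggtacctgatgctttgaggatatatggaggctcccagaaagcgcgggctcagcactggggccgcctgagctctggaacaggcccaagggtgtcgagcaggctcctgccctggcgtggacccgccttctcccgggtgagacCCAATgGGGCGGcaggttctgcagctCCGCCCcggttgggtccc

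The upstream Idh1 window holds 2 reverse-strand GC boxes and 1 CCAAT box, the downstream Idh1 window 1 GC box, and the Idh2 window 1 GC box on each strand and 1 CCAAT box. Over 32851 such windows of 27025 genes, 32.7% held a GC box and 33.8% a CCAAT box, so both motifs are common. The G and C content was 61.6% and 63.6% in the Idh1 windows and 67.2% in the Idh2 window, against a median of 52.4% over all windows. Among members not called, it was 46.8% in Idh3b, 52.8% in Fh1, 55.2% in Cs, 62.8% in Idh3g, 63.2% in Mdh2 and 50% to 74% in Ogdh. GC boxes were also found in windows of Fh1, Mdh2, Cs and Ogdh, and CCAAT boxes in those of Fh1, Idh3b, Cs and Ogdh. The core of the antioxidant response element, TGACNNNGC, was found in 10.2% of all windows and, among the windows of these genes, in that of Idh3g alone, where the ETS core CCGGAAG (6.91% of all windows) was found too. The NRF1 motif, found in 3.74% of all windows, had no match in any of the 14. The E-box CACGTG, found in 6.02% of all windows, had matches in windows of Ogdh only. A match is a description of these letters and not of binding.

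Values are log2 signals after RMA, so a difference of 1 is a doubling. Signals of different probe sets depend on their probes and are not set against each other. Median gene signals of the arrays lay within 8.43 to 8.56, and arrays correlated with one another at 0.978 to 0.997 across genes. The least correlated arrays were replicate 4 of the 12-week NeuT mice, replicate 1 of the 24-week NeuT mice and replicate 3 of the 24-week BALB/c mice. Negative control probe sets had a median of 7.35 and a 95th percentile of 10.46. Idh2, Idh3a, Idh3g, Cs, Ogdh, Fh1 and Mdh2 lay above 10.46 in 18 of 18 arrays, Idh1 in 2 arrays and Idh3b in 0, so the Idh1 and Idh3b signals are near the bright end of the controls. For a check of the cell type each marker was set against 10.46. Of 13 neutrophil markers 8 lay above it in every array, among them the precursor genes Elane (13.62 to 14.24) and Mpo (13.45 to 14.02), 2 lay under it in every array (Mmp9 at 7.02 to 9.10 and Cxcr2 at 8.87 to 9.86) and 3 on both sides. Of 12 stromal markers 10 lay under it in every array, among them Cxcl12 (9.04 to 9.45) and Pdgfrb (7.96 to 8.92), and 2 above it in every array (Sparc at 10.55 to 12.07 and Igfbp4 at 10.58 to 11.49). Above and under it in every array were 0 and 7 of 11 monocyte and macrophage markers and 2 and 3 of 11 B cell markers. The counts were 1 and 6 of 8 T and NK cell, 3 and 1 of 6 erythroid, and 2 and 1 of 5 megakaryocyte markers. They were 9 and 1 of 10 proliferation, 0 and 4 of 5 adipocyte, and 0 and 9 of 9 skeletal muscle markers. The share of all genes under 10.46 was not computed. The Idh3b mean of 10.09 was above the means of 77.1% of genes, so most genes lie under 10.46 on average. Lying under it therefore does not set the stromal markers apart from other genes. Neutrophil precursor transcripts were well above the controls, although the label names stromal cells, and the markers named here were picked with their values known. The preparations are therefore called marrow preparations below, and in such a mixture fewer cells of a type and less RNA per cell cannot be told apart.

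Idh1, Idh2 and Idh3a were higher in the marrow preparations of NeuT mice than in those of BALB/c mice at 12 weeks, and Idh1 was higher at 24 weeks as well. All genes were fitted with limma, with a mean for each of the 4 groups, and a gene is called higher or lower where its Benjamini-Hochberg adjusted p, over all 19505 genes, is under 0.05. At 12 weeks 3 of the 9 genes were called higher and 0 lower, beside 3.15% higher and 0.687% lower of all genes. At 24 weeks 1 was called higher and 0 lower, beside 1.18% and 0.220% of all genes. The median difference over the 9 genes was 0.072 at 12 weeks and 0.082 at 24 weeks, and over all genes -0.025 and -0.00014. The genes were named with results of these arrays known, so these counts are a description and no independent evidence.

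**Figure D1:**
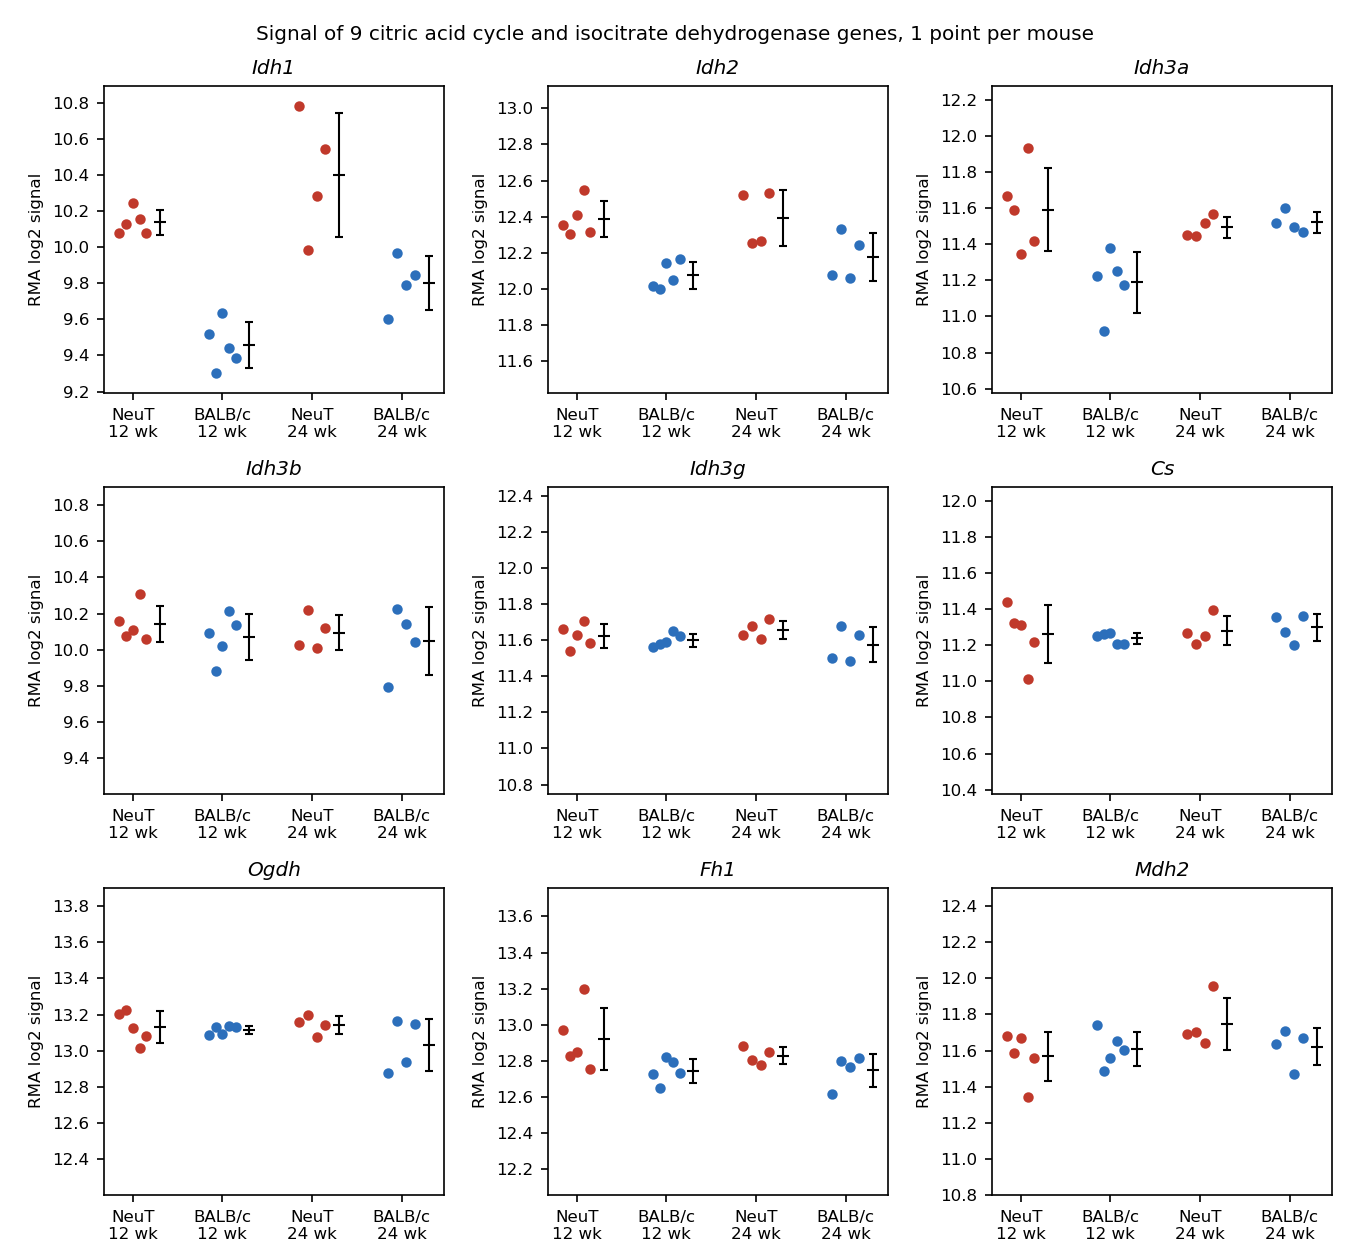
RMA log2 signal of each of the 9 genes, 1 point per mouse, with the group mean and SD beside the points (n = 5 per group at 12 weeks, 4 at 24 weeks). The vertical axes span the same number of log2 units but start at different levels. Idh1 lies between 9.98 and 10.78 in all 9 NeuT mice and between 9.30 and 9.97 in all 9 BALB/c mice. The lowest NeuT mouse and the highest BALB/c mouse, both of 24 weeks, are close. The share of all genes that separate in this way over both ages was not computed. Idh3b, Idh3g, Cs and Ogdh overlap between the mouse models at both ages.

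Idh1 (Entrez gene 15926), the cytosolic and peroxisomal NADP enzyme, read 10.08, 10.13, 10.24, 10.15 and 10.08 in the NeuT mice of 12 weeks, against 9.52, 9.30, 9.64, 9.44 and 9.39 in the BALB/c mice. Every NeuT mouse lay above every BALB/c mouse, as it did for 4.63% of all genes at that age. The log2 difference was 0.68 ± 0.11 (SE, 1.60-fold, 95% interval 0.46 to 0.90, limma adjusted p = 0.00144, n = 5 and 5). At 24 weeks it read 10.78, 9.98, 10.28 and 10.54 in NeuT mice, against 9.60, 9.97, 9.79 and 9.85 in BALB/c mice. The groups did not overlap here either, as for 4.95% of all genes, but the lowest NeuT mouse and the highest BALB/c mouse were close. The difference was 0.60 ± 0.12 (1.51-fold, 95% interval 0.35 to 0.85, limma adjusted p = 0.0233, n = 4 and 4).

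The 12-week call of Idh1 held in 10 of 10 fits that left out 1 array of these groups (differences of 0.64 to 0.73). The 24-week call held in 4 of 8, and leaving out NeuT replicate 1 (0.47, adjusted p = 0.135), NeuT replicate 4 (0.55, adjusted p = 0.134), BALB/c replicate 1 (0.53, adjusted p = 0.0764) or BALB/c replicate 3 (0.59, adjusted p = 0.0544) ended it. Without the 3 least correlated arrays it was 0.46 (adjusted p = 0.178). By group mean the order was NeuT 24 weeks (10.40 ± 0.34, SD), NeuT 12 weeks (10.14 ± 0.069), BALB/c 24 weeks (9.80 ± 0.15) and BALB/c 12 weeks (9.46 ± 0.13). The neighbours in that order within a mouse model did not differ past the threshold: 24 minus 12 weeks gave 0.26 in NeuT mice (limma adjusted p = 0.340) and 0.35 in BALB/c mice (limma adjusted p = 0.139). The difference between the neighbours in the middle, NeuT mice of 12 weeks and BALB/c mice of 24 weeks, was not tested.

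Idh2 (Entrez gene 269951), the mitochondrial NADP enzyme, read 12.35, 12.31, 12.41, 12.55 and 12.31 in NeuT mice of 12 weeks, against 12.01, 12.00, 12.15, 12.05 and 12.16 in BALB/c mice. The groups did not overlap, as for 4.63% of all genes with NeuT mice higher. The difference of 0.31 ± 0.078 (1.24-fold, 95% interval 0.15 to 0.47, limma adjusted p = 0.0272) was smaller than that of Idh1. Its call held in 5 of 10 fits without 1 array. It ended without NeuT replicate 3 (0.31, adjusted p = 0.0594) or 4 (0.27, adjusted p = 0.0810), and without BALB/c replicate 1 (0.30, adjusted p = 0.0737), 2 (0.29, adjusted p = 0.0846) or 4 (0.30, adjusted p = 0.0591). NeuT replicate 4, the array that correlates least with the others, holds the highest Idh2 value of any mouse. At 24 weeks Idh2 read 12.52, 12.25, 12.27 and 12.53 in NeuT mice, against 12.08, 12.33, 12.06 and 12.24 in BALB/c mice, where 1 BALB/c mouse lay above 2 NeuT mice. The 24-week difference of 0.21 (95% interval 0.034 to 0.40, limma adjusted p = 0.268) did not pass. Group means were 12.39 ± 0.15 and 12.39 ± 0.099 in NeuT mice of 24 and 12 weeks, and 12.18 ± 0.13 and 12.07 ± 0.075 in BALB/c mice of 24 and 12 weeks (SD). The 24 minus 12 week difference was 0.0079 in NeuT mice and 0.10 in BALB/c mice, neither past the threshold.

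Idh3a (Entrez gene 67834), the catalytic subunit of the NAD-dependent enzyme, read 11.66, 11.59, 11.35, 11.93 and 11.42 in NeuT mice of 12 weeks, against 11.22, 10.92, 11.38, 11.25 and 11.17 in BALB/c mice. The highest BALB/c mouse lay above the lowest NeuT mouse, so the groups overlapped. The difference was 0.40 ± 0.095 (1.32-fold, 95% interval 0.21 to 0.60, limma adjusted p = 0.0201). It was called in 8 of 10 fits without 1 array, and not without NeuT replicate 4 (0.32, adjusted p = 0.0617) or BALB/c replicate 2 (0.33, adjusted p = 0.0758). NeuT replicate 4, which holds the highest Idh3a value of any mouse, is also the array that correlates least with the others. At 24 weeks Idh3a read 11.45, 11.45, 11.52 and 11.57 in NeuT mice, against 11.52, 11.60, 11.50 and 11.47 in BALB/c mice. These 8 values lie close together and the difference was -0.026 (95% interval -0.24 to 0.19, limma adjusted p = 0.944).

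The difference between the ages of the NeuT effect on Idh3a, -0.43 ± 0.14 (24-week minus 12-week effect, 95% interval -0.72 to -0.13), had an unadjusted p of 0.00630 and did not pass over all genes (limma adjusted p = 0.71). BALB/c mice of 24 weeks had a mean of 11.52 ± 0.059 (SD), against 11.19 ± 0.17 in BALB/c mice of 12 weeks. All 4 older controls lay above all 5 younger ones, as for 3.38% of all genes. The difference of 0.33 had a limma adjusted p of 0.107, and it passed without NeuT 12-week replicate 4 (0.33, adjusted p = 0.0492) and without the 3 least correlated arrays (0.34, adjusted p = 0.0372). NeuT mice had means of 11.49 ± 0.058 at 24 weeks and 11.59 ± 0.23 at 12 weeks. The order of the group means was thus NeuT 12 weeks, BALB/c 24 weeks, NeuT 24 weeks and BALB/c 12 weeks, with the first 3 within 1 SD of the widest group.

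Over all 9 genes 0 passed for the change of the NeuT effect with age, beside 0.0103% of all genes (at an unadjusted p under 0.05, 1 of the 9, Idh3a). For Idh1 and Idh2 the 24-week effect minus the 12-week effect was -0.084 (95% interval -0.42 to 0.25) and -0.096 (95% interval -0.34 to 0.15). For 24 against 12 weeks 0 of 9 passed in NeuT mice, beside 0.0359% of all genes, and 0 of 9 in BALB/c mice, beside 0.579%. At an unadjusted p under 0.05 these were 2 genes in NeuT mice (Idh1 and Mdh2) and 2 in BALB/c mice (Idh1 and Idh3a). The labels name no processing batch, and any batch that follows the age cannot be told apart from it.

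The regulatory subunits Idh3b and Idh3g were not called in any comparison. At 12 weeks Idh3b read 10.16, 10.07, 10.11, 10.31 and 10.06 in NeuT mice, against 10.09, 9.88, 10.02, 10.22 and 10.14 in BALB/c mice. At 24 weeks it read 10.02, 10.22, 10.01 and 10.12 in NeuT mice, against 9.79, 10.23, 10.14 and 10.04 in BALB/c mice. The groups overlapped at both ages. The NeuT minus BALB/c difference of Idh3b was 0.072 at 12 weeks (95% interval -0.10 to 0.25, limma adjusted p = 0.652) and 0.045 at 24 weeks (95% interval -0.15 to 0.24, limma adjusted p = 0.877). Idh3g, which lies on the X chromosome, read 11.66, 11.54, 11.63, 11.71 and 11.59 in NeuT mice of 12 weeks, against 11.56, 11.58, 11.59, 11.65 and 11.62 in BALB/c mice. At 24 weeks it read 11.63, 11.68, 11.60 and 11.72 in NeuT mice, against 11.50, 11.68, 11.49 and 11.63 in BALB/c mice. All 18 of its values lay within 11.49 to 11.72, the narrowest range of the 5 isocitrate dehydrogenase genes. The NeuT minus BALB/c difference of Idh3g was 0.024 at 12 weeks (95% interval -0.10 to 0.15, limma adjusted p = 0.852) and 0.082 at 24 weeks (95% interval -0.061 to 0.23, limma adjusted p = 0.646). Under a further quantile normalisation and under cyclic loess the signs of Idh3g at 12 weeks and Idh3b at 24 weeks turned.

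**Figure D2:**
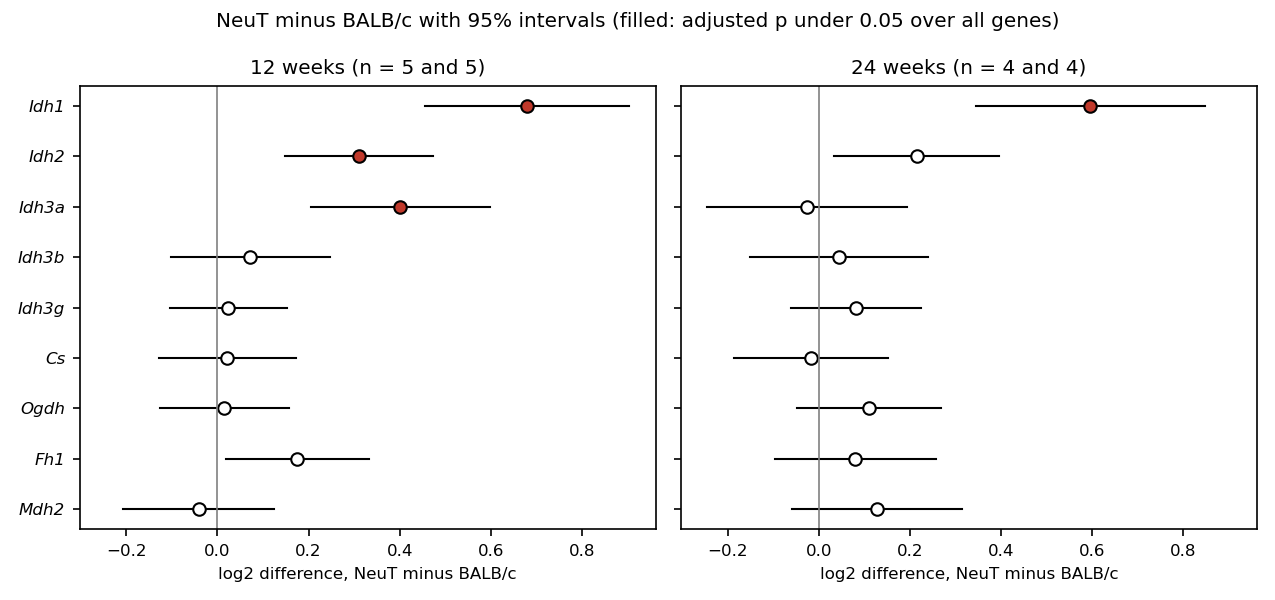
Log2 difference, NeuT minus BALB/c, of each gene at 12 weeks (left, n = 5 and 5) and 24 weeks (right, n = 4 and 4). Lines are 95% intervals and filled points have a limma adjusted p under 0.05 over all genes. Idh1 is filled in both panels, Idh2 and Idh3a at 12 weeks only, and the Idh3a point lies at 0.40 in the left panel and -0.026 in the right one.

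Whether isocitrate dehydrogenase genes moved apart was read from the difference of 2 genes within each array. The pairs were chosen with the values in view, so their shifts are a description, with no test. Only the shift between NeuT and BALB/c mice is interpretable, because the level also depends on the probes. Idh1 minus Idh2 lay 0.37 ± 0.068 (SE) higher in NeuT than in BALB/c mice at 12 weeks and 0.38 ± 0.12 higher at 24 weeks. The mouse models did not overlap at 12 weeks. At 24 weeks they almost touched, with the lowest NeuT mouse at -2.270 and the highest BALB/c mouse at -2.272. How often other pairs of genes separate was not computed. The shift restates the larger Idh1 difference given above, and the Idh1 signal lay under the controls' 95th percentile in 16 of 18 arrays.

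Within the NAD-dependent enzyme, Idh3a minus Idh3b lay 0.33 ± 0.092 higher in NeuT mice than in BALB/c mice at 12 weeks. Idh3b lay under the controls' 95th percentile in all 18 arrays, so the difference is taken against a signal within the range of the controls. Idh3a minus Idh3g lay 0.38 ± 0.12 higher, and both differences overlapped between the mouse models. At 24 weeks the shifts were -0.070 ± 0.11 for Idh3a minus Idh3b and -0.11 ± 0.052 for Idh3a minus Idh3g.

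**Figure D3:**
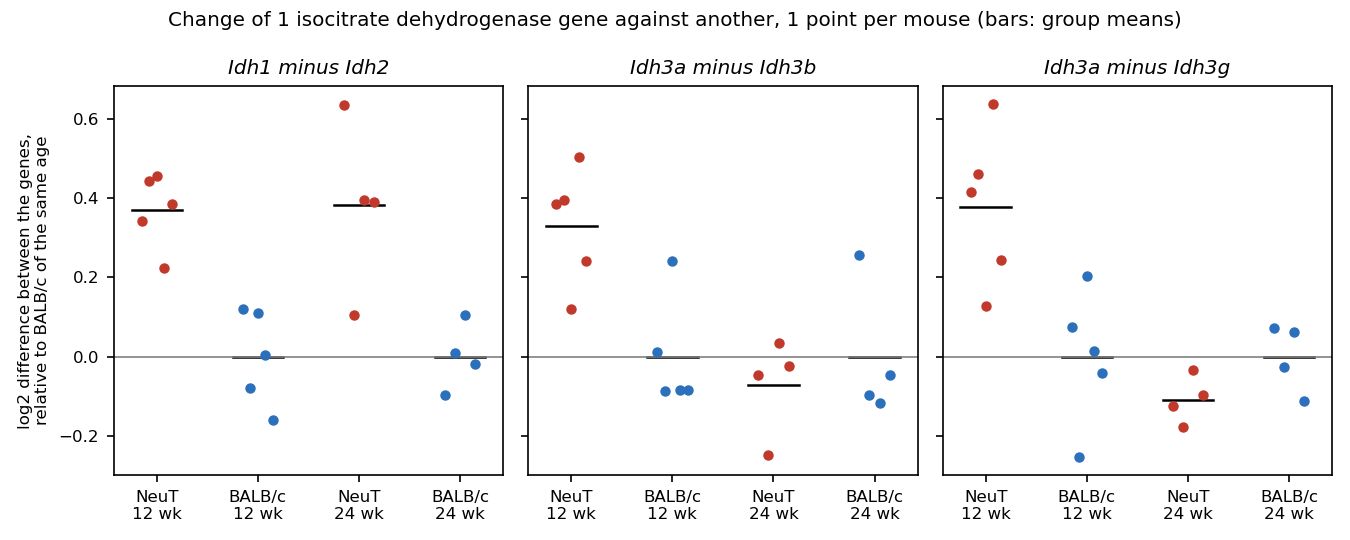
Log2 difference between 2 isocitrate dehydrogenase genes of the same array, relative to the BALB/c mean of the same age, 1 point per mouse, with bars at the group means (n = 5 per group at 12 weeks, 4 at 24 weeks). The NeuT mean of Idh1 minus Idh2 lies 0.37 above the BALB/c mean at 12 weeks and 0.38 above it at 24 weeks, while the NeuT means of the Idh3a differences lie above 0 at 12 weeks and below 0 at 24 weeks.

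None of the genes of the other steps, Cs, Ogdh, Fh1 and Mdh2, was called between NeuT and BALB/c mice at either age. Cs encodes citrate synthase, which starts the cycle by joining acetyl-CoA to oxaloacetate. Cs ranged over 11.01 to 11.44 in NeuT mice (mean 11.26 ± 0.16) and 11.20 to 11.27 in BALB/c mice (mean 11.24 ± 0.030) at 12 weeks, and over 11.20 to 11.40 in NeuT mice (mean 11.28 ± 0.082) and 11.20 to 11.36 in BALB/c mice (mean 11.30 ± 0.076) at 24 weeks. NeuT 12-week replicate 4 had the lowest of all Cs values. The NeuT minus BALB/c difference of Cs was 0.022 at 12 weeks (95% interval -0.13 to 0.17, limma adjusted p = 0.891) and -0.018 at 24 weeks (95% interval -0.19 to 0.15, limma adjusted p = 0.951). Without that replicate the 12-week difference was 0.084. Ogdh encodes the decarboxylating component of the 2-oxoglutarate dehydrogenase complex, which acts on the product of the isocitrate step. Ogdh ranged over 13.02 to 13.23 in NeuT mice (mean 13.13 ± 0.087) and 13.09 to 13.14 in BALB/c mice (mean 13.12 ± 0.023) at 12 weeks, and over 13.07 to 13.20 in NeuT mice (mean 13.14 ± 0.051) and 12.88 to 13.16 in BALB/c mice (mean 13.03 ± 0.15) at 24 weeks. At 12 weeks the BALB/c mice spanned less than the NeuT mice and lay inside their range. The NeuT minus BALB/c difference of Ogdh was 0.015 at 12 weeks (95% interval -0.13 to 0.16, limma adjusted p = 0.920) and 0.11 at 24 weeks (95% interval -0.047 to 0.27, limma adjusted p = 0.563).

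Fh1 encodes fumarase, which hydrates fumarate to malate. Fh1 ranged over 12.75 to 13.20 in NeuT mice (mean 12.92 ± 0.17) and 12.65 to 12.82 in BALB/c mice (mean 12.75 ± 0.067) at 12 weeks, and over 12.78 to 12.89 in NeuT mice (mean 12.83 ± 0.048) and 12.62 to 12.81 in BALB/c mice (mean 12.75 ± 0.090) at 24 weeks. The highest value, 13.20, belonged to NeuT 12-week replicate 4. The NeuT minus BALB/c difference of Fh1 was 0.18 at 12 weeks (95% interval 0.018 to 0.33, limma adjusted p = 0.187) and 0.081 at 24 weeks (95% interval -0.096 to 0.26, limma adjusted p = 0.725). Mdh2 encodes the mitochondrial malate dehydrogenase, which regenerates oxaloacetate. Mdh2 ranged over 11.34 to 11.68 in NeuT mice (mean 11.57 ± 0.14) and 11.49 to 11.74 in BALB/c mice (mean 11.61 ± 0.096) at 12 weeks, and over 11.64 to 11.96 in NeuT mice (mean 11.75 ± 0.14) and 11.47 to 11.71 in BALB/c mice (mean 11.62 ± 0.10) at 24 weeks. NeuT 12-week replicate 4 was lowest and NeuT 24-week replicate 4 highest. The NeuT minus BALB/c difference of Mdh2 was -0.041 at 12 weeks (95% interval -0.21 to 0.12, limma adjusted p = 0.801) and 0.13 at 24 weeks (95% interval -0.058 to 0.31, limma adjusted p = 0.573). Of these 4 genes the 95% interval left out 0 for Fh1 at 12 weeks only, before adjustment. The signs of Cs and Ogdh at 12 weeks and of Fh1 at 24 weeks turned under a further quantile normalisation and under cyclic loess.

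Markers of some blood cells, but not of all, were called between NeuT and BALB/c mice. Of all genes 3.15% were called higher and 0.687% lower at 12 weeks, and 1.18% and 0.220% at 24 weeks. The mean of 13 neutrophil markers per array ran from 11.46 to 12.48 in NeuT and 11.28 to 11.79 in BALB/c mice at 12 weeks, and from 11.69 to 12.44 in NeuT and 11.27 to 11.67 in BALB/c mice at 24 weeks, with 5 of 13 called higher at each age. The 11 monocyte and macrophage markers ran from 8.73 to 9.14 in NeuT and 8.56 to 8.71 in BALB/c mice at 12 weeks (5 called higher, 1 lower), and from 8.74 to 9.10 in NeuT and 8.56 to 8.80 in BALB/c mice at 24 weeks (0 called). The 11 B cell markers ran from 9.52 to 10.84 in NeuT and 10.77 to 10.98 in BALB/c mice at 12 weeks (0 called), and from 9.76 to 10.82 in NeuT and 10.85 to 11.12 in BALB/c mice at 24 weeks (1 called lower). Though few were called, all 11 were lower in NeuT mice at both ages, with median differences of -0.53 and -0.84. The neutrophil medians were 0.47 and 0.59, with 12 and 13 of 13 markers higher in NeuT mice. The 10 proliferation markers overlapped between the mouse models at both ages, with 0 called. Of the 8 T and NK cell markers 1 was called higher at 12 weeks, and 1 higher and 3 lower at 24 weeks, when their mean ran from 8.66 to 9.002 in NeuT and 8.99 to 9.51 in BALB/c mice. Of the 12 stromal markers 1 was called lower at 12 weeks and 3 higher at 24 weeks, when their mean ran from 9.04 to 9.14 in NeuT and 8.85 to 9.05 in BALB/c mice. Of the 6 erythroid, 5 megakaryocyte, 5 adipocyte and 9 skeletal muscle markers 0 were called at either age.

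With the neutrophil and B cell means of each array as covariates, chosen after seeing the data, the Idh1 difference was 0.42 at 12 weeks (limma adjusted p = 0.529) and 0.25 at 24 weeks (adjusted p = 0.869). In that fit Idh2 was at 0.20 (adjusted p = 0.672) and Idh3a at 0.21 (adjusted p = 0.678) at 12 weeks. Of the 11 monocyte and macrophage markers 7 lay under the controls' 95th percentile in every array. With the monocyte mean as the covariate Idh1 was at 0.32 (adjusted p = 0.707) and 0.36 (adjusted p = 0.522), and Idh2 and Idh3a at 0.11 (adjusted p = 0.846) and 0.24 (adjusted p = 0.748) at 12 weeks. None of the 9 genes was called at either age in these fits, in which 4 and 3 of all 19505 genes were called at 12 weeks, against 749 without covariates. At 24 weeks 2 and 3 of all genes were called, against 274 without covariates. The 12-week signs of Idh1, Idh2 and Idh3a remained positive, and Idh3a at 24 weeks was at -0.25 and -0.13 (limma adjusted p = 0.869 and 0.796). The covariates themselves differ between the mouse models, so these fits can also take away a difference between the models.

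Among the surrounding metabolic genes Dlat, Slc25a12 and Pgd were called higher in NeuT mice at 12 weeks, and Slc25a12 at 24 weeks. Of all genes 3.15% were called higher at 12 weeks and 1.18% at 24 weeks, so these few calls are a description. Of the 10 other cycle genes measured, among them the succinyl-CoA ligase and succinate dehydrogenase subunits, 0 were called at either age, with median differences of 0.092 and 0.100. The nearest were Sdhd, a membrane anchor of succinate dehydrogenase, at 0.25 (limma adjusted p = 0.0581), and Suclg1, a succinyl-CoA ligase subunit, at 0.21 (limma adjusted p = 0.103), both at 12 weeks. Sdhd was called with dim genes left out (0.25, adjusted p = 0.0414), with array weights (0.23, adjusted p = 0.0193) and without NeuT 12-week replicate 5 (0.28, adjusted p = 0.0308) or BALB/c 24-week replicate 3 (0.25, adjusted p = 0.0251). Suclg1 was called with array weights (0.21, adjusted p = 0.0306) and without NeuT 12-week replicate 5 (0.26, adjusted p = 0.0410). Of 12 genes of pyruvate entry, 1 was called higher at 12 weeks and 0 at 24 weeks. This was Dlat, the acetyltransferase of the pyruvate dehydrogenase complex, with 10.03 ± 0.078 in NeuT and 9.74 ± 0.062 in BALB/c mice at 12 weeks (difference 0.29, limma adjusted p = 0.0238, SD, n = 5 each). Its call ended without NeuT replicate 4 (0.26, adjusted p = 0.0697) and without BALB/c replicate 1 (0.29, adjusted p = 0.0577), 2 (0.27, adjusted p = 0.0772) or 4 (0.29, adjusted p = 0.0533), under the unmoderated test (adjusted p = 0.0801), and with the neutrophil and B cell (0.27, adjusted p = 0.581) or monocyte covariates (0.30, adjusted p = 0.697). The list medians were 0.033 and 0.060.

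Of 13 cytosolic partners and exchange carriers, 1 was called higher at each age, beside 3.15% and 1.18% of all genes. This was Slc25a12, the mitochondrial aspartate-glutamate carrier that exports aspartate for the malate-aspartate shuttle. It had 10.31 ± 0.096 in NeuT and 10.002 ± 0.097 in BALB/c mice at 12 weeks (difference 0.30, limma adjusted p = 0.0419) and 10.48 ± 0.14 in NeuT and 10.07 ± 0.18 in BALB/c mice at 24 weeks (difference 0.41, limma adjusted p = 0.0338). The 12-week call held only without NeuT replicate 5 or BALB/c replicate 5 among the 10 fits without 1 array of these groups (values of 0.26 to 0.34, adjusted p up to 0.114), and it ended also without BALB/c 24-week replicate 2 (adjusted p = 0.0506). The 24-week call ended without NeuT replicate 1 (0.38, adjusted p = 0.181) or 4 (0.35, adjusted p = 0.167) and without BALB/c replicate 1 (0.40, adjusted p = 0.0844) or 3 (0.33, adjusted p = 0.106). Both calls ended under a further quantile normalisation (0.26, adjusted p = 0.0628, and 0.36, adjusted p = 0.0573) and under cyclic loess (0.26, adjusted p = 0.0568, and 0.35, adjusted p = 0.0597). They ended as well over all probe sets with controls (adjusted p = 0.0697 and 0.0824), under the unmoderated test (adjusted p = 0.104 and 0.664), with the neutrophil and B cell covariates (0.25, adjusted p = 0.657, and 0.33, adjusted p = 0.869) and with the monocyte covariate (0.16, adjusted p = 0.798, and 0.31, adjusted p = 0.552). The 24-week call also ended in the fit on 2 groups (adjusted p = 0.146) and without the 3 least correlated arrays (0.30, adjusted p = 0.241). The medians of the list were 0.055 and 0.078. Slc25a11, the 2-oxoglutarate and malate carrier, was the 1 gene of the 13 called between the ages in BALB/c mice, beside 0.579% of all genes, with 10.84 ± 0.057 at 24 weeks and 10.45 ± 0.054 at 12 weeks (difference 0.38, limma adjusted p = 0.0157). That call ended without BALB/c 12-week replicate 4 (0.37, adjusted p = 0.0550), BALB/c 24-week replicate 1 (0.39, adjusted p = 0.0622) or BALB/c 24-week replicate 2 (0.37, adjusted p = 0.0565).

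Among 7 genes of the side routes of NADPH and 2-oxoglutarate, Pgd, the phosphogluconate dehydrogenase of the pentose phosphate pathway and like Idh1 a cytosolic source of NADPH, was higher at 12 weeks, with 10.36 ± 0.14 in NeuT and 9.84 ± 0.24 in BALB/c mice (difference 0.52 ± 0.10, limma adjusted p = 0.00730). Pgd was the 1 gene of the 7 called at that age, beside 3.15% of all genes called higher. Its call held in 10 of 10 fits without 1 array of these groups. It ended under the unmoderated test (adjusted p = 0.131), with the neutrophil and B cell covariates (0.25, adjusted p = 0.659) and with the monocyte covariate (0.25, adjusted p = 0.744). At 24 weeks it had 10.49 ± 0.15 in NeuT and 10.31 ± 0.18 in BALB/c mice (difference 0.19, limma adjusted p = 0.521), and the medians of the list were 0.040 and 0.097. None of the 8 regulators of mitochondrial biogenesis was called at either age, with medians of 0.081 and 0.048. Tfb2m, a mitochondrial transcription factor, was at 0.33 at 12 weeks (limma adjusted p = 0.207), and Ppargc1a, the PGC-1 alpha coactivator, at -0.57 at 24 weeks (limma adjusted p = 0.347). With the neutrophil and B cell covariates the sign of Ppargc1a turned.

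**Figure D4:**
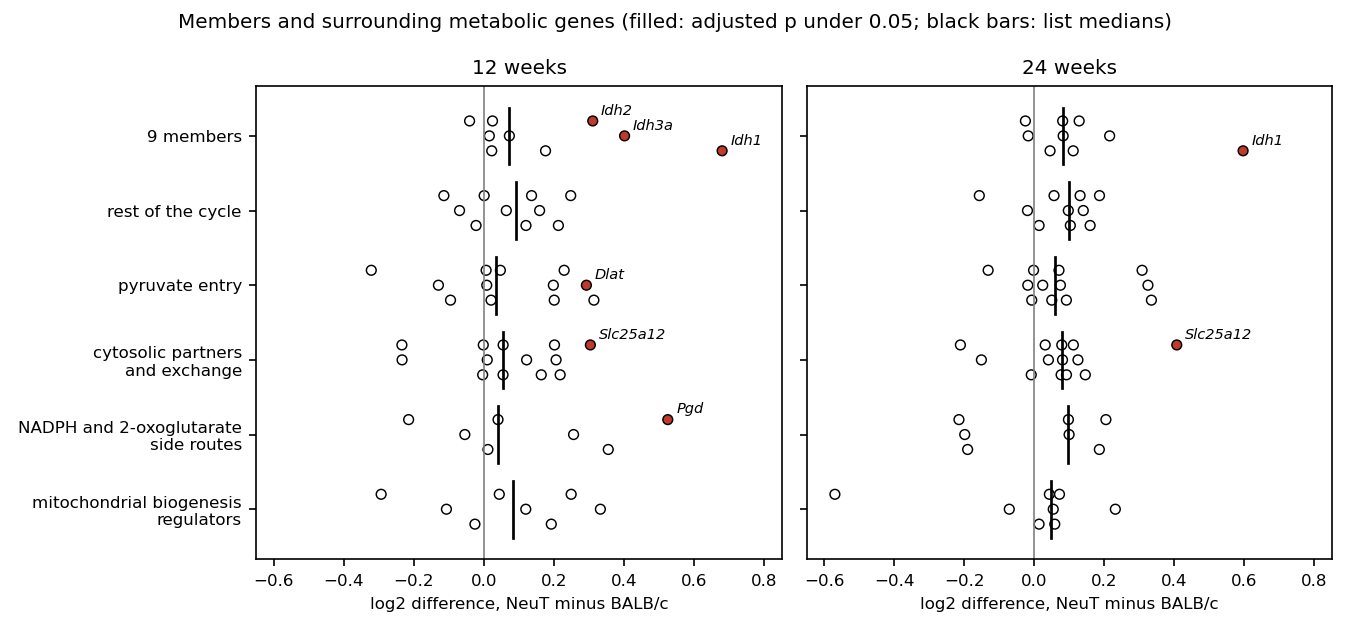
Log2 difference, NeuT minus BALB/c, of the 9 genes and of 5 lists of surrounding metabolic genes at 12 weeks (left) and 24 weeks (right), 1 point per gene; vertical spread is for legibility only. Filled points have a limma adjusted p under 0.05 over all genes and black bars are list medians, which lie between 0.033 and 0.100. Idh1 is the farthest to the right in both panels, and Slc25a12 is the other gene filled in both.

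Between mice of the same group, some pairs of members passed by Pearson's r, close to the threshold, and none by rank. The share of other pairs of genes that would pass was not computed. After each value was centred on its group mean, 4 of the 36 pairs of the 9 genes passed by Pearson's r over 18 mice (permutation within groups, Benjamini-Hochberg over the 36 pairs) and 0 by Spearman's rho, and the median r was 0.244. Idh3a and Fh1 had r = 0.770 (adjusted permutation p = 0.0451) and rho = 0.575 (adjusted permutation p = 0.141). Cs and Mdh2 had r = 0.742 (adjusted permutation p = 0.0451) and rho = 0.639 (adjusted permutation p = 0.100). The other 2 pairs were Idh2 with Fh1 (r = 0.656, rho = 0.662, adjusted permutation p = 0.0418 and 0.100) and Idh3b with Fh1 (r = 0.649, rho = 0.546, adjusted permutation p = 0.0451 and 0.141). Without the 2 mice farthest from the median of the first gene, r was 0.577 for Idh3a and Fh1, 0.602 for Cs and Mdh2, 0.551 for Idh2 and Fh1 and 0.549 for Idh3b and Fh1. Idh1 and Idh2 had r = 0.715 and rho = 0.709 (adjusted permutation p = 0.0552 and 0.100). The count of pairs depended on single mice. It was 5 or 6 without NeuT 12-week replicate 3, BALB/c 12-week replicate 1 or 5, NeuT 24-week replicate 1 or 2, or BALB/c 24-week replicate 3. It was 1 or 2 without NeuT 12-week replicate 1, BALB/c 12-week replicate 4 or BALB/c 24-week replicate 4. It was 0 without NeuT 12-week replicate 2, 4 or 5, or BALB/c 12-week replicate 2 or 3. It was also 0 without NeuT 24-week replicate 3 or 4, or BALB/c 24-week replicate 1 or 2. Among these, NeuT 12-week replicate 4 is the least correlated array. It holds the highest Idh2, Idh3a, Idh3b and Fh1 values and the lowest Cs and Mdh2 values of all mice. Both genes of each of the 4 pairs thus have an extreme value in this array.

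Over all 18 arrays, groups not centred, the genes whose pattern was most like that of each isocitrate dehydrogenase gene were found by Pearson's r, as a description with no test. They share arrays and group differences with it. For Idh1 they were Ptger2 (r = 0.957), a prostaglandin E receptor, Plpp6 (0.955), a lipid phosphatase, and Abcd2 (0.955), a peroxisomal fatty acid transporter. For Idh2 they were Spcs2 (0.948), a signal peptidase subunit, Mlkl (0.944), the effector of necroptosis, and Gria3 (0.944), a glutamate receptor subunit. For Idh3a they were Nhp2 (0.960), a ribonucleoprotein of RNA pseudouridylation, Fam162a (0.953) and Nup37 (0.953), a nuclear pore component. For Idh3b they were Tsr3 (0.863), Tatdn1 (0.853) and Churc1 (0.831), and for Idh3g Psmd2 (0.869), a proteasome subunit, Mdp1 (0.859) and Deptor (0.859), an inhibitor of mTOR. The 3 genes nearest to 1 isocitrate dehydrogenase gene were not among those nearest to another.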

How the data were processed

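Per the labels, total RNA of 18 mice was extracted with a miRNeasy kit, labelled with biotin and hybridised to 1 array per mouse. The authors' deposited values are log2 signals of 29129 probe sets, and the submitters' processing notes name RMA, which subtracts background, quantile-normalises arrays and summarises the probes of a set, and Transcriptome Analysis Console. No version or genome build is given in the sources used here. The number of arrays limits the precision, and the values carry no detection calls.

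Of the probe sets, 19572 had 1 gene symbol; for 55 genes with several, the one with the highest mean was kept, which left 19505 genes. limma 3.58.1 in R 4.3.3 fitted 1 mean per group (14 residual and 8.68 prior degrees of freedom), with 5 contrasts and two-sided tests adjusted by Benjamini-Hochberg over all genes at 0.05. Differences between 2 genes of an array are described without a test. Correlations of group-centred values were tested by 100000 permutations within groups, with scipy 1.17.1 in Python 3.11.15. The fit and the correlations were tested on simulated data. Replicates are different mice, numbered by accession order. The 9 genes, the 5 surrounding metabolic lists and the marker lists were chosen with earlier results of these data known. From a list, the genes past the threshold are named, or else the 2 with the smallest p, and for likeness the 3 genes with the highest r, provisional names passed over. List genes without a probe set of 1 symbol were not analysed here.

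Alternatives were other scalings (quantile normalisation run again, cyclic loess, centring on the median), a filter on dim genes, a fit over every probe set including controls, averaged probe sets, trended and robust variances, array weights, a fit on just the groups compared, an unmoderated test with unequal variances, and leaving out each array. The fits without the 3 least correlated arrays, those with marker means as covariates, and the differences between 2 genes were added after seeing the data.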

Additional observations from a re-analysis of the deposited data

How the results depend on the processing

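No paired analysis was possible because the labels give each mouse its own ID and link no mice between groups. The ID of NeuT 12-week replicate 4, the least correlated array, differs between its title and its description, with the same group in both. The replicate numbers follow accession order and hold no pairing. The 12-week calls of Idh1, Idh2 and Idh3a held under the 3 other scalings, with dim genes left out, over every probe set including controls, with averaged probe sets, with trended and robust variances, with array weights, in the fit on 2 groups and without the 3 least correlated arrays. The count of 3 became 0 under the unmoderated test with unequal variances and with either covariate fit, and 1 to 3 without 1 array. The 24-week count of 1 became 0 with all probe sets and controls (Idh1 adjusted p = 0.0708), in the fit on 2 groups (0.138), under the unmoderated test (0.664), without the 3 arrays and with either covariate fit, and was 0 to 1 without 1 array. For 24 against 12 weeks in BALB/c mice the count of 0 became 2 with array weights (Idh1 and Idh3a), 1 without the 3 arrays, and 0 to 1 without 1 array. The 4 correlated pairs became 0 after a further quantile normalisation and 0 to 6 without 1 array. Over all genes 749 were called at 12 weeks (230 to 1363 without 1 array, 3 to 2088 under the other alternatives) and 274 at 24 weeks (8 to 641, and 0 to 577). The difference of the effects had 2 (1 to 3, and 0 to 10), age in NeuT mice 7 (1 to 177, and 0 to 72) and age in BALB/c mice 113 (0 to 589, and 13 to 2375).

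Signs turned only for differences that were not called; the cause was not tested. At 12 weeks, under quantile normalisation and cyclic loess in turn, Idh3g was at -0.014 and -0.021, Cs at -0.029 and -0.023, and Ogdh at -0.023 and -0.024. At 24 weeks Idh3b was at -0.0087 and -0.0062, and Fh1 at -0.022 and -0.012. Cyclic loess put Idh2 for 24 minus 12 weeks in NeuT mice at -0.0024. Array weights gave -0.0035 for Idh3g at 12 weeks and -0.043 for Idh3b at 24 weeks. Without the 3 arrays Mdh2 at 12 weeks was 0.015 and Idh3a between the ages in NeuT mice 0.0050. With the neutrophil and B cell covariates Cs at 12 weeks was -0.0100, Fh1 at 24 weeks -0.072, Ppargc1a at 24 weeks 0.37 and Idh2 between the ages in NeuT mice -0.011. With the monocyte covariate the 12-week values were -0.0088 for Idh3b, -0.00083 for Idh3g, -0.021 for Fh1 and 0.045 for Mdh2. The 24-week values in that fit were -0.0088 for Idh3b, 0.026 for Cs and -0.049 for Fh1, and the Idh1 difference of effects was 0.038. Without 1 array the ranges that crossed 0 were -0.022 to 0.084 for Cs at 12 weeks, -0.057 to 0.0076 for Cs at 24 weeks, -0.0083 to 0.044 for Ogdh at 12 weeks and -0.071 to 0.015 for Mdh2 at 12 weeks. They were -0.050 to 0.0013 for Idh3a and -0.041 to 0.10 for Idh3b at 24 weeks, -0.11 to 0.015 for Idh3a minus Idh3b at 24 weeks, -0.21 to 0.054 for the Idh1 difference of effects and -0.038 to 0.055 for Idh2 between the ages in NeuT mice.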
